A study of Mus musculus with 21 samples.

Results

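Wild-type CFU-E were compared with wild-type GMP across all genes. The comparison took the libraries whose column names mark CFU-E or GMP as Stag2WT, 3 of each, which made 6 of the 21 libraries of the series. CFU-E are colony-forming units-erythroid, the late committed progenitors of red cells, and GMP are granulocyte-monocyte progenitors. Both were sorted from lineage-depleted mouse bone marrow, with Stag2 (a subunit of the cohesin ring) labelled wild type in all 6, and their RNA was sequenced from the 3′ end of transcripts after SMART-Seq2 amplification. The sources used here give no sort gate, age, sex or strain, and the LSK libraries, made with another kit, were not used. The labels do not tie the 3 libraries of a group to separate animals. P-values therefore measure only how far these libraries differ among themselves, and that spread may be technical.

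An erythroid and a granulocyte-monocyte progenitor descend from the same stem cells. The erythroid route is run by GATA1 and KLF1 and lives on erythropoietin, and its cells build heme, a membrane skeleton and gas-transport proteins. The granulocyte-monocyte route is run by PU.1 and the C/EBP factors, answers to the colony-stimulating factors, and fills granules with antimicrobial proteins. PU.1 and GATA1 are known for blocking each other.

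The chosen label markers came out as labelled, which does not show how pure the groups were. All 10 CFU-E markers tested (among them Gata1, Klf1, Rhag, Ermap, Car1, Car2 and Slc4a1) were higher in CFU-E, and their summed level was 5660 to 6650 CPM in the CFU-E libraries against 202 to 252 CPM in the GMP libraries. All 10 GMP markers (among them Mpo, Elane, Ctsg, Ms4a3, Cebpa and Irf8) were higher in GMP, with summed levels of 37600 to 59900 CPM in GMP against 57.0 to 123 CPM in CFU-E. CPM here are counts scaled to a common library size after TMM (trimmed mean) normalization. Stag2 itself stood at 114, 109 and 135 CPM in the 3 CFU-E libraries and 224, 159 and 106 CPM in the 3 GMP libraries, and the groups overlapped, although leaving out GMP library 3 gave a call (-0.68 on the log2 scale, adjusted p = 0.00812). The libraries held 3732769 to 5210879 counts, and the 10 most abundant genes took 6.62% to 6.75% of counts in CFU-E against 21.2% to 24.9% in GMP.

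Of 30733 genes in the table, 10329 passed the count filter and were tested. At an adjusted p under 0.05, 52.4% of the tested genes differed: 2587 (25.0%) were higher in CFU-E and 2822 (27.3%) higher in GMP. Large differences were unevenly spread. At 10-fold or more, 297 genes were higher in CFU-E and 862 higher in GMP, and at 100-fold or more the counts were 42 and 293. The size of a fold also depends on the level left in the lower group. For 20 abundant CFU-E genes, chosen for a large fold, the median left in the GMP libraries was 0.814% to 1.77%. For 20 abundant GMP genes, chosen in the same way, the median left in the CFU-E libraries was 0.15% to 0.281%. Choosing genes by fold limits in advance the share left in the lower group. No conclusion on the uneven spread is therefore drawn from these shares. The part of residual levels in the numbers of genes at 10-fold or 100-fold was not tested. The groups' libraries did not overlap for 6174 genes (59.8%). Calls of this kind are the background here, and each list below is read against them. The lists were drawn up with earlier results of these data known, so their counts describe and do not test. Scaling by library totals alone put 68.7% of calls on the CFU-E side against 47.8% with TMM and moved the median of all genes to 0.49, so small differences are given relative to the TMM median. The median log2 fold change over all tested genes, CFU-E minus GMP, was 0.03. These are bulk libraries, and fewer cells of a type and less RNA per cell cannot be told apart.

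**Figure D1:**
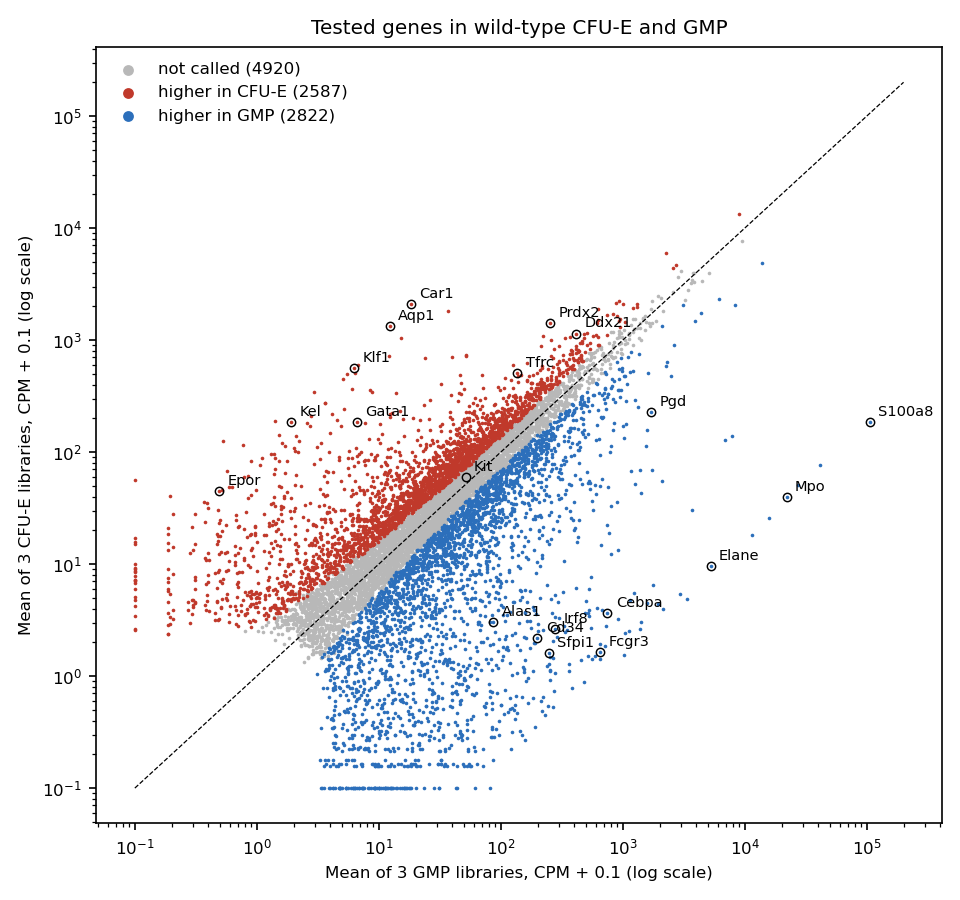
Mean level of each of 10329 tested genes in 3 GMP libraries (x axis) and 3 CFU-E libraries (y axis), in CPM + 0.1 on log scales, coloured by call at an adjusted p under 0.05; the dashed line marks equal levels. Erythroid genes such as Klf1 and Car1 sit at the upper left, granule genes such as Mpo and S100a8 at the lower right, and Kit near the line.

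Promoters of some of the genes that separated the cells hold short motifs that lineage factors are known to bind. Of 32 genes looked up with results known, 25 had an entry in the promoter table, and all 7 with a match are printed: the erythropoietin receptor, a blood group protein and the red cell pyruvate kinase, higher in CFU-E, and 2 granule proteases and 2 secondary granule proteins, higher in GMP. Each is the 200 bases before the annotated start in RefSeq (GRCm38.p6), 5′ to 3′ on the gene's strand. This build is not the one the submitters' processing notes name (mm9), so positions here were set against no count. Capitals mark AGATAA or its reverse complement TTATCT, bound by GATA factors, in Epor, Kel, Pklr and Ltf, GAGGAAGT, bound by PU.1, in Elane and Prtn3, and CCACACCC, bound by KLF factors, in Camp. Only these exact letters were searched. Other forms, such as the tgataa in Kel, stay in lower case, and a promoter without a match may hold such a form.
Epor: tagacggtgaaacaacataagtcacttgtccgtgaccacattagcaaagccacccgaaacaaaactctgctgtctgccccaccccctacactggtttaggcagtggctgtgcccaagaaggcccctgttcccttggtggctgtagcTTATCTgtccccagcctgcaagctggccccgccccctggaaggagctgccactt
Kel: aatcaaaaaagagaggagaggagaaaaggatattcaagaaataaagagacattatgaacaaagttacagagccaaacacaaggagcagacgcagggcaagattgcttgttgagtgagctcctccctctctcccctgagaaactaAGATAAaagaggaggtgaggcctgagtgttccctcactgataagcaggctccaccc
Pklr: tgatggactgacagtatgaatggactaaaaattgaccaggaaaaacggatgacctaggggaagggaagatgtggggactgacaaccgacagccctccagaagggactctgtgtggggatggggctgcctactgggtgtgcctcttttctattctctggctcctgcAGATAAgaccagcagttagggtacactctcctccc
Elane: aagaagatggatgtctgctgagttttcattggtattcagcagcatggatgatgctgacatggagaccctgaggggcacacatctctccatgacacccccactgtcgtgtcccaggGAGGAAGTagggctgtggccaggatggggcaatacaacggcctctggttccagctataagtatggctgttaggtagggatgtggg
Prtn3: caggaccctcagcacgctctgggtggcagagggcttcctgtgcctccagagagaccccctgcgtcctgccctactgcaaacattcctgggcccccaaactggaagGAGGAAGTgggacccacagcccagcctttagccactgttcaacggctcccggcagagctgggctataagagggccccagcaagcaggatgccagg
Ltf: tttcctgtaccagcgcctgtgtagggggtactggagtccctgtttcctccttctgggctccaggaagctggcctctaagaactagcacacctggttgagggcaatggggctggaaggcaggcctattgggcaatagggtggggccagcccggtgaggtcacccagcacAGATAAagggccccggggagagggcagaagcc
Camp: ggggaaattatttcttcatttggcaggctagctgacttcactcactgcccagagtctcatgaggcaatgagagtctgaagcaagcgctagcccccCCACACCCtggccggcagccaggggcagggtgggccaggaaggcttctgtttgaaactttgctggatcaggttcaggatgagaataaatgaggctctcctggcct
These lie at chr9:21963577-21963776, minus strand (Epor), chr6:41704326-41704525, minus strand (Kel), chr3:89135942-89136141, plus strand (Pklr), chr10:79886112-79886311, plus strand (Elane), chr10:79879467-79879666, plus strand (Prtn3), chr9:111019092-111019291, plus strand (Ltf) and chr9:109849457-109849656, minus strand (Camp), and the capitals begin 54, 56, 35, 85, 95, 32 and 105 bases before the start. Ltf holds the GATA motif and was higher in GMP, so this motif did not always go with the erythroid side. Camp was also higher in GMP, but KLF factors were called in both directions, so its motif marks no single lineage. Among promoters of tested genes (300-base windows from 250 before to 50 after the start, both strands, 9126 promoters of 7148 genes matched by symbol), 6.21% held AGATAA, 3.67% CCACACCC and 3.28% GAGGAAGT. For genes at least 2-fold higher in CFU-E the shares were 8.14%, 4.25% and 2.81%, and for genes at least 2-fold higher in GMP 6.27%, 4.72% and 5.3%. No test was made of these shares, and a match describes letters, not a bound site.

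Erythroid transcription factors were mostly higher in CFU-E. Klf1, the factor that switches on adult globin and red cell membrane genes, stood at 525, 659 and 503 CPM in the 3 CFU-E libraries and 2.36, 10.2 and 6.01 CPM in the 3 GMP libraries (log2 fold change 6.53 ± 0.34 (SE), adjusted p = 1.66e-12). Gata1, the master erythroid factor, stood at 172, 200 and 181 CPM in the 3 CFU-E libraries and 5.24, 7.33 and 6.87 CPM in the 3 GMP libraries (log2 fold change 4.83 ± 0.25 (SE), adjusted p = 1.29e-12). Neither gene's CFU-E libraries came near its GMP libraries. Gfi1b, a repressor needed for red cells and platelets, was 52.5-fold higher in CFU-E, at 98.1, 111 and 98.7 CPM in the 3 CFU-E libraries and 0.785, 2.55 and 2.58 CPM in the 3 GMP libraries. Nfia, a factor that favours the erythroid over the granulocytic fate, was 39.5-fold higher, and Zfpm1, which encodes the GATA1 partner FOG1, 24.6-fold higher. Of 25 erythroid regulators, 18 were higher in CFU-E, 5 higher in GMP and 2 not called, with a median log2 fold change of 1.69.

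Members of the erythroid list that were higher in GMP included Cited2, a transcriptional co-regulator, at 8.78, 12.9 and 7.1 CPM in the 3 CFU-E libraries and 219, 203 and 206 CPM in the 3 GMP libraries (log2 fold change -4.43 ± 0.25 (SE), adjusted p = 5.07e-12). Lyl1, a relative of the stem cell factor TAL1, was 3.03-fold higher in GMP, Nfe2, a factor of platelet and globin genes, 2.4-fold, and Mxi1, a MYC antagonist, 1.87-fold. Myb, the progenitor factor that keeps cells dividing, gave 508 ± 44.6 against 700 ± 175 CPM (mean ± SD, n = 3 each) and was not called (adjusted p = 0.0681). Without GMP library 3 it passed, at a log2 fold change of -0.60 (adjusted p = 0.0133). Myb also passed with DESeq2 size factors (adjusted p = 0.0432), the DESeq2 test (0.0351) or 50 counts required in 3 libraries (0.0479).

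Myeloid factors lay on the GMP side. Sfpi1, the table's name for the gene of PU.1, stood at 1.56, 1.36 and 1.6 CPM in the 3 CFU-E libraries and 216, 255 and 268 CPM in the 3 GMP libraries (log2 fold change -7.33 ± 0.28 (SE), adjusted p = 3.66e-14). Cebpa, which opens the granulocyte programme, stood at 3.51, 4.42 and 2.75 CPM in the 3 CFU-E libraries and 526, 706 and 1010 CPM in the 3 GMP libraries (log2 fold change -7.68 ± 0.32 (SE), adjusted p = 9.65e-14). Cebpe, the C/EBP of late granule genes, stood at 1.17, 1.7 and 1.37 CPM in the 3 CFU-E libraries and 581, 561 and 617 CPM in the 3 GMP libraries (log2 fold change -8.65 ± 0.29 (SE), adjusted p = 1.06e-14). In each of these 3 the highest CFU-E library was below 5 CPM and the lowest GMP library above 200 CPM. Gfi1, the granulocytic counterpart of Gfi1b, was 393-fold higher in GMP and below 1 CPM in every CFU-E library (log2 fold change -9.26 without CFU-E library 2 against -8.62), so the 2 GFI1 family members lay on opposite sides. Irf8, the monocyte and dendritic cell factor, was 109-fold higher in GMP. Of 20 tested myeloid regulators, 17 were higher in GMP, with a median log2 fold change of -4.48. The 1 member higher in CFU-E was Egr1, at 5.27, 8.67 and 2.06 CPM in the 3 CFU-E libraries and 1.83, 2.55 and 1.43 CPM in the 3 GMP libraries (adjusted p = 0.0207). Its groups overlapped, and it was not called without CFU-E library 2 (adjusted p = 0.195) or GMP library 1 (0.0501) or 3 (0.0879). Zeb2 (80.3 ± 14.6 against 111 ± 48.7 CPM) and Cux1 (42.9 ± 0.721 against 48.8 ± 2.88 CPM) were not called, though Zeb2 passed without GMP library 3 (adjusted p = 0.0342).

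Regulators of stem and early progenitor cells were split. Of 16 tested, 9 were higher in GMP and 4 in CFU-E, the latter near the 25.0% of all tested genes. Fli1, an ETS factor of megakaryocytes and early progenitors that is known to oppose KLF1, stood at 6.83, 9.86 and 4.35 CPM in the 3 CFU-E libraries and 131, 141 and 100 CPM in the 3 GMP libraries (log2 fold change -4.12 ± 0.28 (SE), adjusted p = 9.49e-11). The related Etv6 was 4.18-fold and Erg 31.6-fold higher in GMP, and Hlf, a stem cell factor, 13.2-fold. Without CFU-E library 3 the log2 fold change of Erg was -5.73 against -4.98. On the CFU-E side stood Msi2, which binds RNA and is known from stem cells (3.08-fold), and Ikzf1, the gene of Ikaros (1.68-fold). Gata2, the early GATA factor that GATA1 replaces, reached 24.4 ± 11.1 against 12.8 ± 7.12 CPM in overlapping groups (adjusted p = 0.0467) and was not called without CFU-E library 1 (adjusted p = 0.268) or 2 (0.0555) or GMP library 1 (0.196) or 3 (0.0645).

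**Figure D2:**
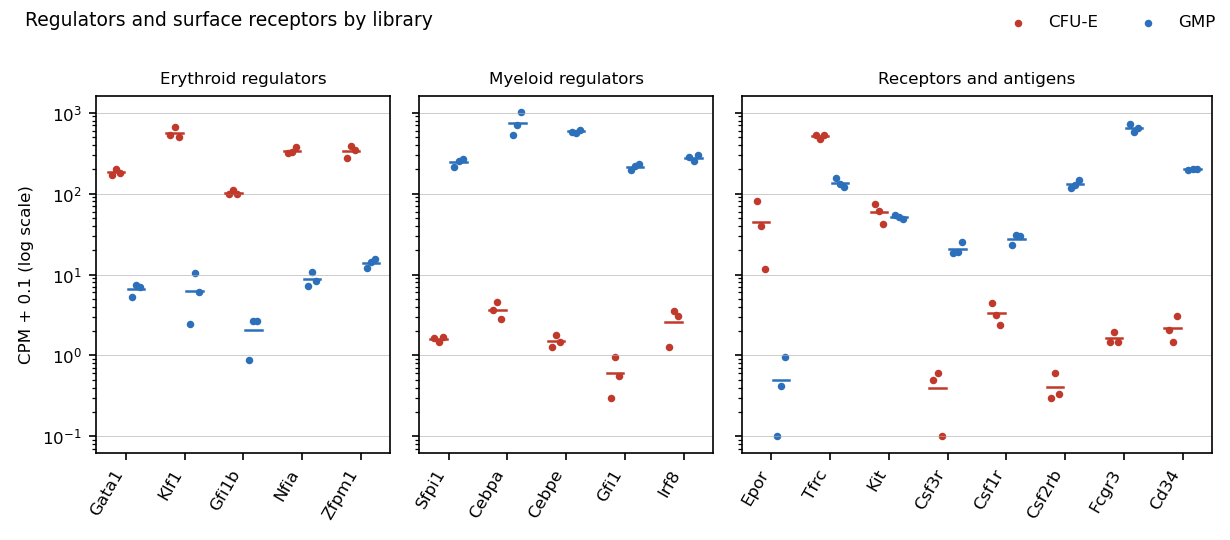
Level of 18 genes in each of 3 CFU-E (red) and 3 GMP (blue) libraries, in CPM + 0.1 on a log scale; points are libraries and bars are group means. Erythroid and myeloid factors show separate groups in opposite directions, Epor spans a wide range among CFU-E libraries, and Kit overlaps.

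Receptors of erythroid cytokines came first. Epor, the erythropoietin receptor, stood at 81.5, 40.1 and 11.7 CPM in the 3 CFU-E libraries and 0, 0.319 and 0.859 CPM in the 3 GMP libraries (log2 fold change 6.76 ± 0.75 (SE), adjusted p = 1.69e-07). All 3 CFU-E libraries exceeded every GMP library. The log2 fold change was 5.99 without CFU-E library 1, 6.10 without GMP library 1 and 8.02 without GMP library 3. Kit, the stem cell factor receptor, overlapped at 73.7, 61.2 and 42.6 CPM in the 3 CFU-E libraries and 54.5, 51 and 48.7 CPM in the 3 GMP libraries (log2 fold change 0.21 ± 0.22 (SE), adjusted p = 0.464). Tfrc, the transferrin receptor through which erythroid cells take up iron, was 3.74-fold higher in CFU-E at 529, 474 and 524 CPM in the 3 CFU-E libraries and 157, 131 and 121 CPM in the 3 GMP libraries. Notch2 was 2.24-fold higher in CFU-E. Of the 8 tested receptors of erythroid and stem cells, 3 were higher in CFU-E and 2 in GMP, the insulin receptor Insr (2.07-fold) and Igf1r (1.69-fold), which was not called without GMP library 3 (adjusted p = 0.0572) or without CFU-E library 1 (0.0967) or 2 (0.0576), or with library totals alone (0.306). The glucocorticoid receptor Nr3c1 (64.5 ± 1.29 against 52.1 ± 15.5 CPM) and the thyroid hormone receptor Thra (166 ± 16.3 against 156 ± 24.7 CPM) were not called.

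Among 28 tested receptors for myeloid cytokines and chemokines, 25 were higher in GMP, 3 were not called and none was higher in CFU-E. Csf2rb, the shared chain of the receptors for GM-CSF, IL-3 and IL-5, stood at 0.195, 0.51 and 0.229 CPM in the 3 CFU-E libraries and 116, 126 and 149 CPM in the 3 GMP libraries (log2 fold change -8.53 ± 0.36 (SE), adjusted p = 1.08e-13). Csf3r, the G-CSF receptor, stood at 0.39, 0.51 and 0 CPM in the 3 CFU-E libraries and 18.3, 18.8 and 24.9 CPM in the 3 GMP libraries (log2 fold change -5.88 ± 0.50 (SE), adjusted p = 2.92e-09). Csf1r, the M-CSF receptor, stood at 4.29, 3.06 and 2.29 CPM in the 3 CFU-E libraries and 22.8, 30.9 and 29.5 CPM in the 3 GMP libraries (log2 fold change -3.09 ± 0.32 (SE), adjusted p = 6.31e-08). The M-CSF receptor thus had the smallest fold difference of these 3 genes. Il4ra was 49.9-fold and Tnfrsf1a, a TNF receptor, 48.1-fold higher in GMP. Il17ra, the IL-17 receptor, gave 213 ± 14.7 against 216 ± 1.97 CPM and was not called.

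Innate receptors had the lowest median of the 35 lists. All 20 tested members of the list were higher in GMP, with a median log2 fold change of -8.54, and their summed level was 7.411 to 10.03 CPM in CFU-E against 2237 to 2608 CPM in GMP. Fcgr3, the low-affinity IgG receptor by which GMP are usually gated, stood at 1.36, 1.87 and 1.37 CPM in the 3 CFU-E libraries and 735, 581 and 650 CPM in the 3 GMP libraries (log2 fold change -8.69 ± 0.29 (SE), adjusted p = 1.06e-14). Its signalling partner, the Fc receptor gamma chain Fcer1g (94.8-fold), Tyrobp, the adaptor of TREM receptors (658-fold), and the lectin receptors Clec12a (357-fold) and Clec4a2 (521-fold) were on the same side. Trem3 had 2 counts in all CFU-E libraries together against 1240 in GMP, a ratio of 912 (95% interval 252 to 7540, counting error only).

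Adhesion molecules and gate antigens went both ways, 17 of 27 higher in GMP and 8 higher in CFU-E. The latter is near the 25.0% of all tested genes. Cd34, a surface antigen of early and myeloid progenitors, stood at 1.95, 1.36 and 2.98 CPM in the 3 CFU-E libraries and 196, 200 and 203 CPM in the 3 GMP libraries (log2 fold change -6.59 ± 0.29 (SE), adjusted p = 1.44e-13). Ly6a, which encodes the stem cell antigen Sca-1, did not exceed 2.62 CPM in any library and was not tested. Ly6c2 (526-fold, or a log2 fold change of -9.66 in place of -9.04 without CFU-E library 2), Itgam, the CD11b integrin chain (92.3-fold), and Cd93 (87.2-fold) were higher in GMP. Higher in CFU-E were Eng, the TGF-beta co-receptor endoglin (192, 240 and 270 CPM in the 3 CFU-E libraries and 10.5, 18.5 and 15.8 CPM in the 3 GMP libraries), the integrin Itga4 (2.56-fold), and the complement shields Cd59a (7.73-fold) and Cd55 (5.41-fold). Cd44 gave 152 ± 3.72 against 194 ± 26 CPM and was not called, though it passed without GMP library 1 (adjusted p = 0.0388).

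Red cell membrane and skeleton genes had the highest median of the 35 lists. Of 30 tested, 28 were higher in CFU-E, with a median log2 fold change of 5.36, and their summed level was 9490 to 10620 CPM in CFU-E against 612 to 766 CPM in GMP. Car1, the carbonic anhydrase that hydrates carbon dioxide, stood at 1980, 2310 and 1960 CPM in the 3 CFU-E libraries and 9.95, 30.9 and 14 CPM in the 3 GMP libraries (log2 fold change 6.84 ± 0.35 (SE), adjusted p = 1.13e-12). Aqp1, the red cell water channel, stood at 1220, 1410 and 1340 CPM in the 3 CFU-E libraries and 6.81, 19.8 and 10 CPM in the 3 GMP libraries (log2 fold change 6.78 ± 0.32 (SE), adjusted p = 4.7e-13). Ermap, an erythroid membrane protein, was 60-fold higher, at 688, 703 and 760 CPM in the 3 CFU-E libraries and 10.5, 13.4 and 12 CPM in the 3 GMP libraries. Among blood group proteins Rhd was 92-fold, Rhag 49.7-fold and Kel 105-fold higher in CFU-E. Without GMP library 2 the log2 fold change of Rhd rose from 6.52 to 7.54. Slc4a1, the anion exchanger band 3, reached 49.2 ± 13.9 against 2.19 ± 1.34 CPM, and without GMP library 3 its log2 fold change rose from 4.46 to 5.07. Add2, a skeleton adducin, was 166-fold, Cldn13 62.3-fold and Tspo2 78.8-fold higher. The 2 exceptions were transporters higher in GMP, Slc2a1, the glucose transporter GLUT1 (0.585, 0.34 and 0 CPM in the 3 CFU-E libraries and 4.19, 9.56 and 9.45 CPM in the 3 GMP libraries), and Slc22a4 (3.71-fold). Without CFU-E library 1 the log2 fold change of Slc2a1 was -5.10 against -4.45.

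Most heme synthesis genes were higher in CFU-E. Named in pathway order, Alad was 8.7-fold, Uros 5.7-fold, Urod 3.74-fold, Cpox 18.1-fold, Ppox 3.71-fold and Fech, which inserts the iron, 4.77-fold higher. Of these Cpox had the largest difference, at 837, 714 and 580 CPM in the 3 CFU-E libraries and 31.1, 43 and 43.8 CPM in the 3 GMP libraries (log2 fold change 4.18 ± 0.24 (SE), adjusted p = 5.33e-12). Alas1, the housekeeping form of the first enzyme, stood at 3.9, 3.06 and 1.83 CPM in the 3 CFU-E libraries and 60, 87.3 and 113 CPM in the 3 GMP libraries (log2 fold change -4.85 ± 0.32 (SE), adjusted p = 5.88e-11), the opposite direction. Alas2, the erythroid form, was read at 0.78, 0.68 and 0.229 CPM in CFU-E and 0, 0 and 0.573 CPM in GMP and failed the count filter. In the GENCODE M21 annotation the 3′ end of Alas2 overlaps Apex2 on the other strand, and whether that bears on its counts was not tested. Of 16 tested genes of the list, 13 were higher in CFU-E and 1 in GMP, and the mitochondrial carrier Slc25a39 (94 ± 15.6 against 74.1 ± 15.9 CPM) and the protease subunit Clpx (16.1 ± 2.47 against 10.6 ± 0.491 CPM) were not called. Slc25a39 passed without GMP library 3 (adjusted p = 0.0405).

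Iron handling was tilted the same way, with 15 of 23 tested genes higher in CFU-E and 2 higher in GMP. Steap3, the endosomal ferrireductase that works with the transferrin receptor, was 13.4-fold higher in CFU-E (131 ± 31.6 against 9.78 ± 3.44 CPM). Blvrb, biliverdin reductase B, stood at 609, 823 and 653 CPM in the 3 CFU-E libraries and 16.8, 28 and 26.6 CPM in the 3 GMP libraries, 29.3-fold higher, and the heme exporter Abcg2 was 9.61-fold higher. The iron exporter Slc40a1 was 1.55-fold higher in CFU-E. Higher in GMP were Hmox1, the heme oxygenase that breaks heme down (0.351 ± 0.292 against 6.13 ± 1.66 CPM), and Ncoa4, the receptor that sends ferritin to the lysosome (1.42 ± 0.828 against 11.5 ± 2.76 CPM). Without CFU-E library 3 the log2 fold change of Hmox1 moved from -4.10 to -4.85, and without CFU-E library 2 that of Ncoa4 from -2.95 to -3.56. Pcbp1, an iron chaperone, gave 850 ± 31.2 against 825 ± 200 CPM and was not called.

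All 4 globin genes that passed the filter were higher in CFU-E. Hbb-b2 stood at 396, 557 and 511 CPM in the 3 CFU-E libraries and 28.5, 56.7 and 53.3 CPM in the 3 GMP libraries (log2 fold change 3.40 ± 0.26 (SE), adjusted p = 4.82e-10), and Hbb-b1 was 11.4-fold, Hba-a1 6.45-fold and Hba-a2 3.77-fold higher. The paired alpha and the paired beta genes are near-identical copies, and no source used here says how reads were split between them, which leaves the single-gene values uncertain.

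Genes of the primary granule list were higher in GMP in all 22 cases, with a median log2 fold change of -7.92. The list also holds genes of other products, such as the hexokinase Hk3. Mpo, myeloperoxidase, stood at 34.7, 55.1 and 29.3 CPM in the 3 CFU-E libraries and 17700, 19400 and 28700 CPM in the 3 GMP libraries (log2 fold change -9.10 ± 0.37 (SE), adjusted p = 6.61e-14). Elane, neutrophil elastase, stood at 8.39, 14.8 and 5.27 CPM in the 3 CFU-E libraries and 4370, 4340 and 7000 CPM in the 3 GMP libraries (log2 fold change -9.08 ± 0.39 (SE), adjusted p = 1.15e-13). Prtn3, proteinase 3, was 629-fold, Ms4a3 441-fold, Serpinb1a, an inhibitor of these proteases, 293-fold, and Nkg7 151-fold higher in GMP. Ctsg, cathepsin G, was 678-fold higher, and its log2 fold change moved from -9.41 to -10.17 without CFU-E library 2.

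Genes of later neutrophil stages were no less separated. All 19 tested were higher in GMP, and their summed level was 178100 to 233800 CPM in the GMP libraries against 252 to 511 CPM in CFU-E. S100a8, a subunit of calprotectin, stood at 160, 269 and 129 CPM in the 3 CFU-E libraries and 97200, 122000 and 98900 CPM in the 3 GMP libraries, and its partner S100a9 at 73.7, 110 and 47.9 CPM in the 3 CFU-E libraries and 41100, 50600 and 33300 CPM in the 3 GMP libraries. The secondary granule genes Ngp (532-fold), Camp (610-fold), Ltf, lactoferrin (352-fold), and Lcn2 (244-fold) and the ficolin Fcnb (706-fold) followed. Camp varied in GMP, at 8130, 22000 and 17300 CPM. The primary granule list summed to 49640 to 77060 CPM in the GMP libraries, below the list of later stages. The share of the GMP values that came from cells of later stages was not tested.

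The residual levels of the most abundant granule genes in CFU-E were close to one share of the GMP level within a library. S100a8 stood at 0.15%, 0.254% and 0.121% of its GMP mean in CFU-E libraries 1, 2 and 3, Mpo at 0.158%, 0.251% and 0.134%, Elane at 0.16%, 0.282% and 0.101%, and Ngp at 0.168%, 0.246% and 0.148%. For the 20 most abundant genes with a log2 fold change of -5 or lower, the median was 0.172%, 0.281% and 0.15%, with single genes from 0.0271% (Ctsg, library 3) to 3.43% (Cotl1, library 2). In each of the 4 named genes CFU-E library 2 was the highest. A log2 fold change near -9 was shared by many granule genes, and the part of a small common share of GMP RNA or reads in it was not tested. CFU-E library 3 was read on another flow cell than the GMP libraries, and CFU-E libraries 1 and 2 on the same one. In the other direction, 20 abundant CFU-E genes with a log2 fold change of 5 or more stood in GMP libraries 1, 2 and 3 at a median of 0.814%, 1.77% and 1.52% of their CFU-E mean.

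Monocyte and macrophage genes were mostly higher in GMP, 17 of 18 tested. F13a1, a coagulation factor subunit of monocytes, was 180-fold, Ms4a6c 160-fold, Slfn2 281-fold and the cathepsin Ctsh 209-fold higher. The exception was Ifi30, a lysosomal thiol reductase, 2.69-fold higher in CFU-E. The NADPH oxidase, which makes microbicidal superoxide, was on the GMP side: Cybb, its catalytic subunit, stood at 2.73, 3.06 and 1.15 CPM in the 3 CFU-E libraries and 1400, 1170 and 585 CPM in the 3 GMP libraries, Ncf1 at 1.95, 2.21 and 1.15 CPM in the 3 CFU-E libraries and 638, 781 and 711 CPM in the 3 GMP libraries and Ncf4 was 364-fold higher. Alox5ap, which serves leukotriene synthesis, was 122-fold higher in GMP. Of the 15 tested enzymes of this list 13 were higher in GMP and 2, catalase (Cat, 1.74-fold) and the mitochondrial superoxide dismutase Sod2 (1.94-fold, overlapping), were higher in CFU-E.

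Markers of further lineages were present at differing levels in the 2 groups. All 11 tested genes of mast cells, basophils and eosinophils were higher in GMP, with summed levels of 2459 to 5527 CPM there and 7.10 to 11.2 CPM in CFU-E. Prg2, the eosinophil major basic protein, stood at 2.73, 5.44 and 3.44 CPM in the 3 CFU-E libraries and 1580, 1110 and 3750 CPM in the 3 GMP libraries, and its log2 fold change moved from -9.09 to -8.41 without GMP library 3. The basophil proteases Mcpt8 (0.368 ± 0.271 against 137 ± 6.28 CPM) and Prss34 (0.407 ± 0.253 against 84.7 ± 25.6 CPM) and Hdc, which makes histamine (2.41 ± 0.618 against 1120 ± 134 CPM), were also on the GMP side. The log2 fold change of Mcpt8 moved from -8.35 to -9.13 without CFU-E library 2. The share of the GMP values that came from cells of these lineages was not tested.

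Megakaryocyte and platelet genes were divided within the list, 6 of 12 higher in CFU-E and 3 in GMP, against 25.0% and 27.3% of all tested genes. The summed levels overlapped, at 333 to 587 CPM in CFU-E and 479 to 698 CPM in GMP. Pf4, platelet factor 4, stood at 48, 134 and 71.5 CPM in the 3 CFU-E libraries and 0.524, 15.6 and 6.87 CPM in the 3 GMP libraries (log2 fold change 3.51 ± 0.52 (SE), adjusted p = 7.8e-06). Gp5, a platelet glycoprotein, stood at 26.7, 57.3 and 36 CPM in the 3 CFU-E libraries and 0.524, 1.91 and 1.43 CPM in the 3 GMP libraries (log2 fold change 4.97 ± 0.43 (SE), adjusted p = 3.91e-09). Treml1 was at 7.61, 33.3 and 20.6 CPM in the 3 CFU-E libraries and 0.785, 2.55 and 0.859 CPM in the 3 GMP libraries, and von Willebrand factor, Vwf, 17.3-fold higher in CFU-E. All 4 were highest in CFU-E library 2 and lowest in CFU-E library 1. Without GMP library 2 the log2 fold changes were 4.51 for Pf4, 4.58 for Treml1 and 4.74 for Vwf, against 3.51, 3.90 and 4.12 with it, and without GMP library 1 that of Pf4 was 2.88. Higher in GMP were Serpine2 (5.92-fold), Rap1b (2.26-fold) and Plek (2.09-fold, overlapping, and not called with library totals alone, adjusted p = 0.0887). The platelet integrin chains Itga2b (46.9 ± 14.9 against 30.2 ± 13.1 CPM) and Itgb3 (10.3 ± 4.24 against 15.8 ± 3.97 CPM) were not called. Itga2b was called without CFU-E library 1 (adjusted p = 0.0247) or GMP library 3 (0.00543), and Itgb3 without CFU-E library 2 (0.0329). Itga2b was also called with a replicate block (adjusted p = 0.0416) or without a low-count filter (0.0258). The same held with library totals alone (0.00406) or totals without abundant genes (0.0315).

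Lymphocyte genes were low: 3 of 24 passed the filter, with summed levels of 13.43 to 22.45 CPM in CFU-E and 28.0 to 41.8 CPM in GMP. Of the MHC class II and dendritic list, 7 of 16 passed. H2-DMb1, which loads class II molecules, stood at 8, 7.82 and 5.04 CPM in the 3 CFU-E libraries and 83, 107 and 140 CPM in the 3 GMP libraries. Zbtb46, a factor best known from conventional dendritic cells and also present in erythroid progenitors, went the other way, at 79.4, 107 and 113 CPM in the 3 CFU-E libraries and 3.4, 1.91 and 0.859 CPM in the 3 GMP libraries (log2 fold change 5.55 ± 0.34 (SE), adjusted p = 1.94e-11).

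Glycolysis differed by enzyme form rather than as a block. Of 25 tested genes 12 were higher in GMP, 8 in CFU-E and 5 were not called. Among hexokinases, which trap glucose, Hk1 stood at 323, 336 and 314 CPM in the 3 CFU-E libraries and 132, 118 and 144 CPM in the 3 GMP libraries (log2 fold change 1.31 ± 0.19 (SE), adjusted p = 6.17e-06) and Hk2 at 11.7, 10.2 and 8.93 CPM in the 3 CFU-E libraries and 185, 199 and 210 CPM in the 3 GMP libraries (log2 fold change -4.26 ± 0.23 (SE), adjusted p = 2.28e-12). Hk3 had 1 count in the CFU-E libraries together and 561 in GMP, a ratio of 826 (95% interval 148 to 32700, counting error only). Hk1 was thus on the CFU-E side and Hk2 and Hk3 on the GMP side. Of the phosphofructokinases, the liver-type gene was not called and the others divided. The muscle-type Pfkm stood at 55.6, 70.3 and 61.6 CPM in the 3 CFU-E libraries and 1.83, 1.27 and 2.86 CPM in the 3 GMP libraries. The platelet-type Pfkp stood at 9.95, 9.01 and 7.1 CPM in the 3 CFU-E libraries and 76.7, 52.2 and 69.6 CPM in the 3 GMP libraries. Pyruvate kinase, the last step, was divided between genes. Pklr, which makes the liver and red cell form, had 139 counts in CFU-E and 1 in GMP, a ratio of 94.5 (95% interval 16.7 to 3760, counting error only). Pkm2, the table's name for the other pyruvate kinase gene, stood at 2.54, 5.61 and 1.83 CPM in the 3 CFU-E libraries and 446, 501 and 637 CPM in the 3 GMP libraries (log2 fold change -7.25 ± 0.33 (SE), adjusted p = 2.54e-13), and its log2 fold change moved to -7.88 without CFU-E library 2. Slc16a1, the lactate carrier MCT1, was 3.13-fold higher in CFU-E, and Pgm2, a phosphoglucomutase, 28.6-fold higher in GMP. Ldha (146 ± 32.8 against 168 ± 41.4 CPM) and Tpi1 (74.1 ± 5.64 against 104 ± 30.7 CPM) were not called, and Tpi1 passed without GMP library 1 (adjusted p = 0.00275). Gapdh, Pgk1 and Pgam1, which every cell uses and which have many processed copies in the genome, failed the count filter; whether reads with several matches were dropped was not tested.

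**Figure D3:**
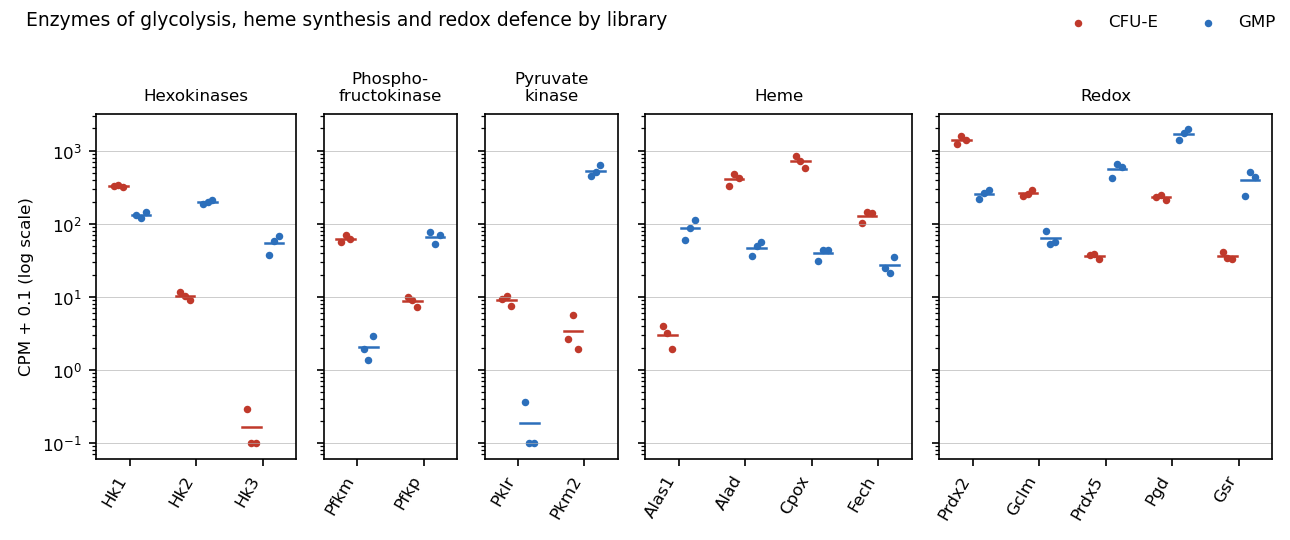
Level of 16 enzymes of glycolysis, heme synthesis and redox defence in each of 3 CFU-E (red) and 3 GMP (blue) libraries, in CPM + 0.1 on a log scale; points are libraries and bars are group means. Of the genes shown from each of the 3 glycolytic families, 1 is higher in CFU-E and the rest in GMP. The liver-type phosphofructokinase, which was not called, is not shown.

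Mitochondrial genes differed little as groups. Of 76 tested genes of oxidative phosphorylation, 10 were higher in CFU-E, 11 in GMP and 55 not called, fewer calls than the 52.4% of all tested genes, with a median log2 fold change of -0.05, whose sign turned with the scaling. Cox6b2, a cytochrome oxidase subunit best known from testis, stood at 96, 135 and 152 CPM in the 3 CFU-E libraries and 21.2, 21.7 and 18.3 CPM in the 3 GMP libraries (log2 fold change 2.65 ± 0.23 (SE), adjusted p = 5.73e-09). The complex I subunit Ndufs1 was 2.5-fold and Atp5g1, a subunit of ATP synthase, 2.02-fold higher in CFU-E, and Ndufb11 (2.1-fold) and Ndufb7 (2.05-fold) were higher in GMP. Cox6c (1340 ± 132 against 1660 ± 139 CPM) and Atp5g3 (1540 ± 215 against 1260 ± 239 CPM) were not called. In the citric acid cycle 9 of 24 genes were higher in CFU-E and 2 in GMP. Dlst, which makes the succinyl-CoA that heme synthesis draws on, was 2.25-fold higher in CFU-E (227 ± 21.9 against 101 ± 23 CPM), and the isocitrate dehydrogenase subunits Idh3a and Idh3b 2.22-fold and 2.05-fold, while Idh2 was 2.72-fold and Mdh1 1.59-fold higher in GMP, the latter not called with library totals alone (adjusted p = 0.289). Mitochondrial ribosomal proteins gave 19 of 71 genes higher in CFU-E, near the 25.0% of all tested genes. The 2 higher in GMP, below the 27.3% of all tested genes, were Mrpl33 (2.14-fold) and Mrpl44 (2.37-fold). The largest CFU-E difference in that list was Mrpl52, at 230, 240 and 220 CPM in the 3 CFU-E libraries and 36.4, 44 and 33.2 CPM in the 3 GMP libraries.

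Genes of the pentose phosphate pathway and of redox defence, counted together, were split evenly, 12 of 30 each way. The called pentose phosphate genes were all higher in GMP, and the called redox defence genes were more often higher in CFU-E. Members of a family again differed. Prdx2, the peroxiredoxin of red cells, stood at 1210, 1590 and 1410 CPM in the 3 CFU-E libraries and 214, 260 and 290 CPM in the 3 GMP libraries (log2 fold change 2.46 ± 0.21 (SE), adjusted p = 3.35e-09). Prdx5 went the other way, at 37, 38.8 and 33.2 CPM in the 3 CFU-E libraries and 425, 647 and 604 CPM in the 3 GMP libraries (log2 fold change -3.94 ± 0.23 (SE), adjusted p = 7.63e-12). Both subunits of the enzyme that starts glutathione synthesis, Gclc (3.64-fold) and Gclm (4.13-fold), and the mitochondrial thioredoxin reductase Txnrd2 (5.21-fold) were higher in CFU-E. Gsr, which recycles glutathione, stood at 41, 33.6 and 32.8 CPM in the 3 CFU-E libraries and 242, 511 and 440 CPM in the 3 GMP libraries, the glutaredoxin Glrx was 8.54-fold higher in GMP, and Pgd, an NADPH-making step of the pentose phosphate pathway, stood at 229, 243 and 212 CPM in the 3 CFU-E libraries and 1410, 1740 and 1950 CPM in the 3 GMP libraries. Gclc and Gclm were thus on one side and Gsr on the other. Rpia (348 ± 36.1 against 299 ± 32.7 CPM) and Prdx1 (313 ± 35.5 against 241 ± 19.6 CPM) were not called.

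Lipid synthesis went both ways. Of 28 sterol and fatty acid genes, 10 were higher in CFU-E and 7 in GMP, near the 25.0% and 27.3% of all tested genes, with a median of 0.14. The desaturase Scd1 was 17-fold, Acss2 5.49-fold, the elongase Elovl6 4.21-fold and the sterol enzyme Sqle 2.55-fold higher in CFU-E. The mevalonate genes Fdps (3.7-fold) and Mvd (3.1-fold) and the sterol enzyme Sc5d (2.6-fold) were higher in GMP. Of 31 genes of nucleotide, folate and serine synthesis, 13 were higher in CFU-E and 4 in GMP. Mthfd1, a folate enzyme, stood at 357, 333 and 292 CPM in the 3 CFU-E libraries and 32.7, 53.5 and 55.9 CPM in the 3 GMP libraries (log2 fold change 2.79 ± 0.23 (SE), adjusted p = 1.82e-09), and Cad, which starts pyrimidine synthesis, was 3.85-fold, Pfas 2.95-fold and the mitochondrial folate enzyme Mthfd1l 2.57-fold higher. The cytosolic serine enzyme Shmt1 (3.67-fold), Impdh1 (4.22-fold) and adenosine deaminase, Ada (6.55-fold), were higher in GMP. Rrm2, a ribonucleotide reductase subunit (198 ± 27.3 against 151 ± 15 CPM), and Umps (108 ± 11.8 against 103 ± 7.2 CPM) were not called.

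Amino acid transport and polyamine genes gave 14 of 22 higher in CFU-E and 1 in GMP. Slc38a5, a glutamine and histidine transporter, stood at 209, 232 and 221 CPM in the 3 CFU-E libraries and 1.57, 4.14 and 6.3 CPM in the 3 GMP libraries (log2 fold change 5.79 ± 0.32 (SE), adjusted p = 3.61e-12). Slc43a1 was 6.01-fold and asparagine synthetase, Asns, 6.85-fold higher in CFU-E. Slc1a4 was 17-fold higher, with a log2 fold change of 3.44 without GMP library 1 against 4.09 with it. Sat1, which breaks polyamines down, was the exception, 8.33-fold higher in GMP. Slc38a2 gave 107 ± 13.5 against 78 ± 17.6 CPM and was not called, though it passed without GMP library 1 (adjusted p = 0.0262).

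Replication genes were shifted modestly to CFU-E, 19 of 48 higher there and 2 in GMP, with a median log2 fold change of 0.43. Cdc6, which licenses origins, stood at 277, 274 and 250 CPM in the 3 CFU-E libraries and 82.7, 88.6 and 99.1 CPM in the 3 GMP libraries (log2 fold change 1.57 ± 0.19 (SE), adjusted p = 6.66e-07). Orc2 was 3.32-fold, Orc1 2.52-fold and the primase subunit Prim2 2.26-fold higher in CFU-E. Higher in GMP were the clamp loader subunit Rfc2 (1.69-fold) and Cdc45 (1.58-fold), the latter not called without CFU-E library 3 (adjusted p = 0.0537) or GMP library 2 (0.0506). With library totals alone neither was called (adjusted p = 0.148 for Rfc2 and 0.392 for Cdc45). Lig1 (2370 ± 444 against 2070 ± 165 CPM) and Mcm3 (687 ± 31.7 against 552 ± 54.2 CPM) were not called.

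Mitosis genes were mostly not called, 41 of 51, with 6 higher in CFU-E and 4 in GMP, and the median was 0.00, or 0.46 when scaled by library totals alone. Ccna2 was 2.1-fold and Ccnb1 1.7-fold higher in CFU-E, and Kif23, a motor of cell division, 2.32-fold higher in GMP. Top2a (1580 ± 163 against 1460 ± 459 CPM), Birc5 (720 ± 70 against 717 ± 23.2 CPM) and Smc4 (684 ± 142 against 835 ± 347 CPM) were not called. The G1 list, set against 25.0% and 27.3% of all tested genes, gave 4 of 33 higher in CFU-E and 10 in GMP. It had a median of -0.11 that library totals alone turned to 0.35. Its largest difference was Ccne1, cyclin E1, which drives entry into S phase, at 190, 227 and 159 CPM in the 3 CFU-E libraries and 16.2, 28.4 and 20.3 CPM in the 3 GMP libraries (log2 fold change 3.15 ± 0.25 (SE), adjusted p = 7.74e-10). E2f4, a factor known to be needed for red cell growth, was 3.3-fold higher in CFU-E. The MYC antagonists Mxd1 (3.38-fold) and Mxd4 (2.71-fold) and the phosphatase Cdc25a (1.73-fold) were higher in GMP, with Cdc25a not called under library totals alone (adjusted p = 0.103). Cdk4 (249 ± 29.3 against 222 ± 22.1 CPM) and Cdk6 (134 ± 6.43 against 138 ± 29.3 CPM) were not called.

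Ribosome assembly genes all leaned to CFU-E. Of 54 ribosome biogenesis genes, 43 were higher in CFU-E, 11 were not called and none was higher in GMP, and the estimate was positive in all 54, with a median log2 fold change of 0.87. Nolc1, a nucleolar phosphoprotein, stood at 474, 497 and 461 CPM in the 3 CFU-E libraries and 161, 163 and 186 CPM in the 3 GMP libraries (log2 fold change 1.49 ± 0.19 (SE), adjusted p = 1e-06). Ddx21, a nucleolar helicase, stood at 1160, 1140 and 1120 CPM in the 3 CFU-E libraries and 462, 403 and 377 CPM in the 3 GMP libraries (log2 fold change 1.46 ± 0.19 (SE), adjusted p = 1.65e-06). Gnl3, nucleostemin, was 3.61-fold and Polr1a, the catalytic subunit of RNA polymerase I, 2.82-fold higher in CFU-E. These 4 were named for having the smallest p of the list. Their CFU-E libraries did not overlap their GMP libraries, which held for 59.8% of all tested genes. Nop10 gave 528 ± 53.6 against 489 ± 23.2 CPM and was not called.

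Cytosolic ribosomal proteins, by contrast, were not called in 66 of 81 cases, 12 were higher in CFU-E and 3 in GMP, and the median was 0.00, with a sign that turned with the scaling. Rps3 (3360 ± 633 against 4440 ± 1080 CPM) and Rpl8 (3970 ± 390 against 3840 ± 992 CPM) overlapped, although Rps3 was called, higher in GMP, without GMP library 1 (log2 fold change -0.62, adjusted p = 0.0166). Rpl12 (49.5 ± 1.9 against 14.7 ± 2.21 CPM) and Rpl7 (72.2 ± 23.9 against 25.8 ± 5.29 CPM) were higher in CFU-E. Many ribosomal protein genes have processed copies across the genome, and no source used here says how reads that fit several places were counted, which leaves Rpl12 and Rpl7 uncertain. Translation factors gave 15 of 38 higher in CFU-E and 1 in GMP. Pabpc4, an inducible poly(A)-binding protein, stood at 808, 956 and 897 CPM in the 3 CFU-E libraries and 188, 194 and 260 CPM in the 3 GMP libraries (log2 fold change 2.05 ± 0.20 (SE), adjusted p = 3.46e-08), and the initiation factors Eif4g1 (2.08-fold), Eif5b (2.28-fold) and Eif3a (2.39-fold) were higher in CFU-E. Eif6, which keeps ribosomal subunits apart, was 1.49-fold higher in GMP, and was not called without CFU-E library 1 (adjusted p = 0.0951) or 3 (0.0679), or with library totals alone (0.591). Pabpc1 (1480 ± 181 against 1890 ± 175 CPM) was not called.

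**Figure D4:**
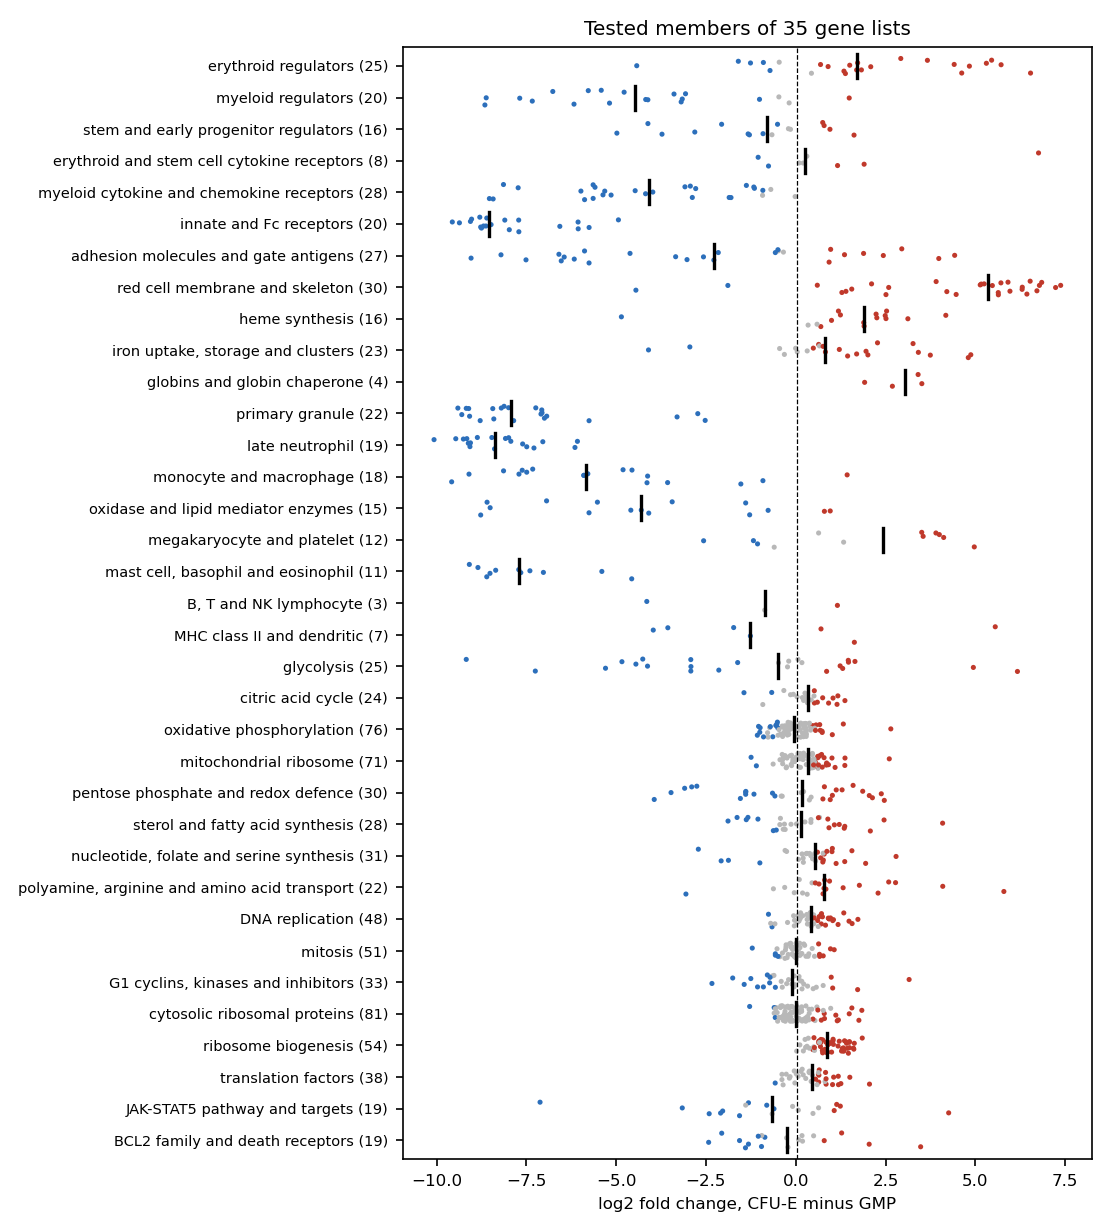
Log2 fold change, CFU-E minus GMP, of each tested member of 35 gene lists (number tested in brackets); red and blue points were called higher in CFU-E or GMP, grey points were not called, black bars are list medians and the dashed line is the median of all tested genes. Lineage lists spread to the far left or right, and the ribosome biogenesis points all lie right of 0.

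Signalling genes downstream of cytokine receptors were divided, with 4 of 19 higher in CFU-E and 9 in GMP. The shares over all tested genes were 25.0% and 27.3%. Jak2, the kinase bound to the erythropoietin receptor, was 2.1-fold higher in CFU-E at 64.5, 58 and 60.9 CPM in the 3 CFU-E libraries and 39.3, 32.8 and 15.2 CPM in the 3 GMP libraries, Stat5a 2.36-fold, and the adaptor Gab1 19.1-fold at 23.4, 27.5 and 22 CPM in the 3 CFU-E libraries and 0.785, 1.27 and 1.72 CPM in the 3 GMP libraries. The 3′ ends of Stat5a and Stat3 overlap on opposite strands in GENCODE M21, and the strand setting is not given in the sources used here. In all, 31 of 247 named genes matched in that annotation have another coding gene over their last 500 bases, 27 of them on the opposite strand. They include Pklr and Hcn3, Hk3 and Unc5a, Pfkp and Pitrm1, Prdx2 and Junb, Cpox and Gpr15, Ppox and B4galt3, Csf1r and Hmgxb3, Eng and Fpgs, Lyl1 and Nfix, and Ncf1 and Gtf2ird2, and their values are uncertain for that reason. Stat3 was 8.94-fold higher in GMP, as were the kinase Lyn (5.32-fold) and the phosphatase Ptpn6, a brake on cytokine receptors (4.1-fold). Id1, an inhibitor of helix-loop-helix factors, stood at 0.78, 1.02 and 0 CPM in the 3 CFU-E libraries and 79.6, 98.4 and 103 CPM in the 3 GMP libraries. Stat5b (76.6 ± 9.21 against 55.1 ± 19.6 CPM) and Ptpn11 (82.6 ± 1.68 against 87.7 ± 7.8 CPM) were not called.

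Genes of cell death and survival showed 4 of 19 higher in CFU-E and 8 in GMP, against 25.0% and 27.3% of all tested genes. Their median of -0.26 turned to 0.21 with library totals alone. Bcl2l11, the gene of the death-promoting BIM, was 4.12-fold and Bbc3, that of PUMA, 2.42-fold higher in CFU-E. The survival genes Bcl2 (5.07, 4.08 and 4.12 CPM in the 3 CFU-E libraries and 25.9, 24.9 and 20.9 CPM in the 3 GMP libraries) and Bcl2l1, the gene of BCL-XL (16.6, 22.1 and 16.9 CPM in the 3 CFU-E libraries and 46.1, 65 and 54.4 CPM in the 3 GMP libraries), were higher in GMP, and so were Bad (2.49-fold) and Apaf1 (2.64-fold). Mcl1 (141 ± 7.52 against 124 ± 21.1 CPM) and Bax (112 ± 22.3 against 99.2 ± 25.8 CPM) were not called.

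Outside the lists, the largest differences among genes at 50 CPM or more included several enzymes and surface proteins. In CFU-E, Mmp14, a membrane metalloprotease, stood at 158, 227 and 179 CPM in the 3 CFU-E libraries and 1.83, 1.27 and 0.859 CPM in the 3 GMP libraries (log2 fold change 7.11 ± 0.32 (SE), adjusted p = 2.41e-13), and Sphk1, which makes sphingosine 1-phosphate, at 314, 382 and 328 CPM in the 3 CFU-E libraries and 0.785, 5.1 and 2.58 CPM in the 3 GMP libraries (log2 fold change 6.96 ± 0.35 (SE), adjusted p = 1.13e-12). Without GMP library 2 the log2 fold change of Sphk1 was 7.65. The phospholipid exporter Abcb4 was 94.5-fold and Igsf3 104-fold higher. Samd14, a gene known as a GATA target in erythroid cells, was 103-fold higher, with a log2 fold change of 7.37 without GMP library 2 against 6.69 with it. In GMP, Sgms2, a sphingomyelin synthase, had 3 counts in CFU-E against 1655 in GMP, a ratio of 812 (95% interval 277 to 3940, counting error only), and Emb, embigin, 3 against 1557, a ratio of 764 (261 to 3710). The table holds 25 symbols that read as dates, and 1 of them, among the largest CFU-E differences, is left unnamed.

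The comparison was repeated in libraries that it did not use: CFU-E and GMP labelled Stag2KO, 4 of each, with flow cell as a term, and with GMP KO library 1 at 1250683 counts, the shallowest. CFU-E KO library 1 shared a flow cell with the GMP libraries, and the other 3 CFU-E KO libraries did not. With the flow cell term, each KO log2 fold change therefore sets CFU-E KO library 1 alone against the 4 GMP KO libraries. The other 3 CFU-E KO libraries enter only the flow cell term and the estimate of spread. Stag2 itself was read at 67.9, 38.7, 62.7 and 70.5 CPM in the 4 CFU-E KO libraries and 106, 114, 92.2 and 164 CPM in the 4 GMP KO libraries. The sources used here do not give the deleted part of the gene, so 3′ reads do not check the KO label. In these libraries 10118 genes were tested and 40.4% were called, 20.5% higher in CFU-E and 19.9% higher in GMP. Of 5160 genes called in wild type and tested in KO, 5027 (97.4%) had the same sign, and over all 9908 genes tested in both the share was 84.9%. The 3500 genes called in the same direction in both made up 64.7% of the wild-type calls and 85.7% of the KO calls. Stag2 genotype differs between the 2 comparisons, so this is a repeat of lineage in another genotype and not a replicate. Klf1 had a log2 fold change of 6.65 in KO and Gata1 4.49, Sfpi1 -6.25 and Cebpa -7.01. The median of the red cell membrane list was 5.595 there, that of ribosome biogenesis 1.04 and that of primary granule genes -7.475. Pklr (5.39) and Pkm2 (-5.63), Hk1 (1.74) and Hk2 (-4.39), and Prdx2 (3.01) and Prdx5 (-3.45) kept their opposite signs. Not every named gene kept its sign: Itgb3, not called in wild type (-0.6), stood at 1.29 in KO.

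**Figure D5:**
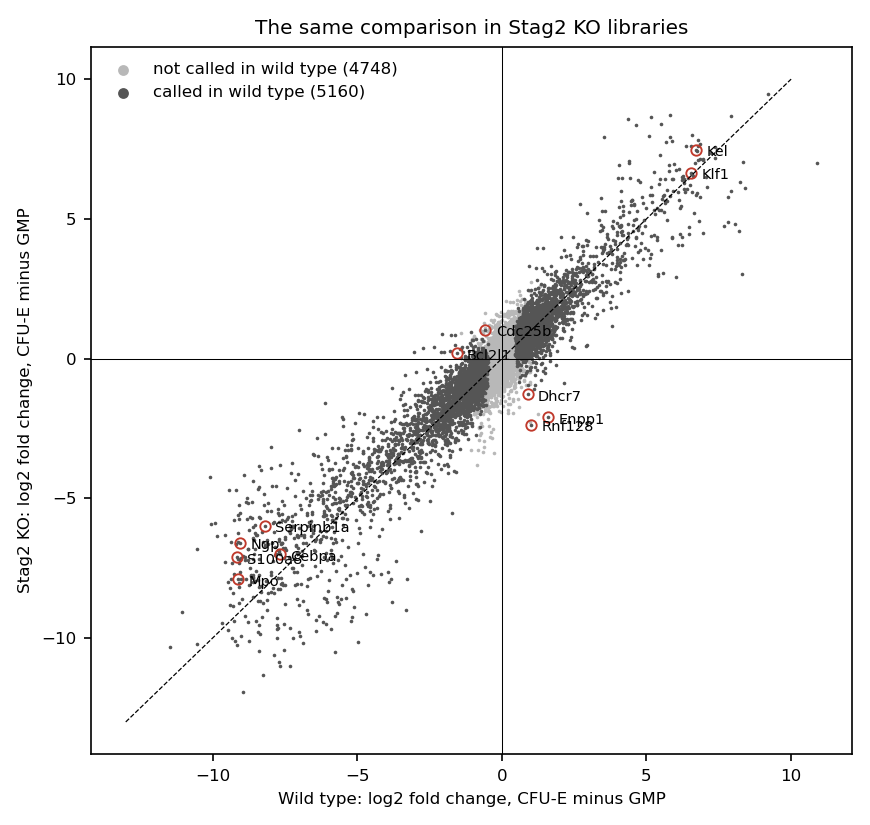
Log2 fold change, CFU-E minus GMP, of 9908 genes tested in both genotypes, in wild type (x axis) and in Stag2 KO (y axis); dark points were called in wild type and the dashed line marks equal values. Most called genes lie in the lower left or upper right, and the circled Cdc25b, Dhcr7, Enpp1 and Rnf128 were called in opposite directions.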

How the data were processed

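The deposited table holds raw counts of reads per gene symbol and library, made by the authors. Per the labels' protocols, CFU-E and GMP libraries were sequenced from the 3′ end after SMART-Seq2 amplification, and the submitters' processing notes name STAR 2.4, HTSeq 0.6.1, DESeq2 and mm9, with no annotation, strand setting or rule for reads with several matches named. Groups came from the sample labels. The 3 wild-type CFU-E libraries held 3737659 to 5210879 counts and the 3 GMP libraries 3732769 to 4401993. Within each group, libraries differed by far more than sampling noise, so none was a copy of another.

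From these counts, edgeR 4.0.16 (R 4.3.3) kept genes by its expression filter (minimum count 10, minimum total 15), scaled libraries by TMM and fitted a quasi-likelihood model of cell type on the 6 libraries, with no covariates. P-values were adjusted by Benjamini-Hochberg over all tested genes, and calls were made at an adjusted p under 0.05. SE is the absolute log2 fold change over the root of F. The KO comparison added flow cell, read from the sample descriptions. The procedure was tested on simulated data in which far fewer genes changed, and by less, than in these data. That test does not bear on how the scaling copes with many large differences.

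Members and the 35 gene lists were chosen with earlier results of these data known. Of 1109 distinct list members, 1104 were in the table and 962 were tested. Genes were named by rule: a fixed set, up to 4 called genes per list and direction by smallest p at 5 CPM or more in the higher group, up to 3 uncalled genes per list by level, and the 15 largest non-overlapping differences per direction at 50 CPM or more. Gfi1b, Fcer1g, S100a8, S100a9, Pfkp, Uros, Urod, Ppox, Slc40a1, Gapdh, Pgk1, Pgam1, Dhcr7, Enpp1 and Rnf128 were chosen after their values were seen; Rhag, Car2 and Slc4a1 are label markers. Alternatives were other scalings, DESeq2 1.42.0, limma-voom (limma 3.58.1), other count filters, each library left out, a replicate block, a flow cell term and a fit of all 14 CFU-E and GMP libraries. Replicate numbers were not treated as pairs, because same-numbered libraries did not deviate together. Some genes that the naming rule allows are not reported here.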

Additional observations from a re-analysis of the deposited data

Results flagged for a closer look

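In a model of all 14 CFU-E and GMP libraries with flow cell as a term, the difference between CFU-E and GMP depended on the Stag2 label for 49 of 11006 genes by edgeR's quasi-likelihood test at an adjusted p under 0.05. Among the genes named here there were 7, and each is listed with the KO difference minus the wild-type difference on the log2 scale. Positive values came for Serpinb1a (2.06), Ngp (2.29), Bcl2l1 (1.81) and Cdc25b (1.48). Negative values came for Dhcr7 (-1.98), Enpp1 (-3.13) and Rnf128 (-3.74). Bcl2l1 was 2.96-fold higher in GMP in wild type and had a log2 fold change of 0.18 in KO (adjusted p = 0.74). Cdc25b (-0.57 in wild type, 1.02 in KO), Dhcr7 (0.89 and -1.28), Enpp1 (1.61 and -2.10) and Rnf128 (2.01-fold higher in CFU-E, and a log2 fold change of -2.38 in KO) were called in opposite directions, and they were the only 4 such genes of the table. The KO fit has a flow cell term, so its CFU-E side rests on CFU-E KO library 1, and the wild-type fit has none. With that term in wild type, Dhcr7 (0.72, adjusted p = 0.0817) and Rnf128 (0.87, adjusted p = 0.053) were not called, while Cdc25b (-0.65, adjusted p = 0.0344) and Enpp1 (1.66, adjusted p = 7.25e-05) were. With library totals alone Cdc25b was not called (adjusted p = 0.641). In wild type without that term, Cdc25b was not called without CFU-E library 1 or 2 or GMP library 2 (adjusted p 0.0678 to 0.101), Dhcr7 without CFU-E library 3 or GMP library 1 or 2 (0.0502 to 0.0784) and Rnf128 without GMP library 2 or 3 (0.075 to 0.107). The log2 fold change of Rnf128 was 1.67 without GMP library 1.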

How the results depend on the processing

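The count of all called genes in each genotype, and the wild-type count in each direction, stayed within 1.5 times the reported ones under the alternatives run, except for wild-type genes higher in CFU-E with library totals and for KO calls with a replicate block. Scaling by library totals alone gave 4525 genes higher in CFU-E and 2058 higher in GMP, 68.7% of calls on the CFU-E side against 47.8%. It moved the median of all genes by 0.46, to 0.49, and turned the medians of oxidative phosphorylation (0.41), mitosis (0.46), the G1 list (0.35) and the BCL2 list (0.21) and the estimate for Il17ra (0.44, adjusted p = 0.0339). Of 249 named genes, 8 lost their call under it (Igf1r, Plek, Mdh1, Rfc2, Cdc45, Cdc25a, Cdc25b and Eif6, all higher in GMP) and 23 gained one, all higher in CFU-E. Totals without genes above 1% of counts turned the G1 median (0.04), with 56.0% of calls on the CFU-E side and a median over all genes of 0.18. Requiring 50 counts in 3 libraries turned the megakaryocyte median (-0.02). The KO count fell from 4086 to 2634 with a replicate block (1150 higher in CFU-E against 2071), and without the flow cell term it was 6128 (3177 higher in CFU-E). In wild type the replicate block gave 5120 calls. Same-numbered libraries had correlations of deviations of -0.108, -0.069 and -0.159, so the numbers do not pair samples. Leaving out 1 library gave 4731 to 5740 wild-type calls (2130 to 2687 and 2601 to 3053 by direction) and 3755 to 5097 KO calls; the KO fit without CFU-E library 1 could not be run, because flow cell then equals group. Without a low-count filter 6135 genes were called. Of the 3 libraries per group the smallest had 3732769 counts, so genes of a few CPM rest on few counts, and medians near 0 have no settled sign.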
